A study of Mus musculus with 160 samples.

Results

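The transcripts described here are those of the GATA transcription factors *Gata1* to *Gata6*, of the Fog cofactors *Zfpm1* (Fog1) and *Zfpm2* (Fog2) that bind them, and of 9230102O04Rik, a gene annotated inside the *Gata3* locus. They were chosen by name, as the rows of a gene count table whose Ensembl identifiers carry these symbols in the GENCODE mouse annotation, and make up 9 of the 46078 genes in the table. GATA proteins recognise a short DNA motif built around the letters that name them, through a pair of zinc fingers, and Fog proteins do not bind DNA themselves but attach to the amino-terminal finger and bring in corepressors. GATA1, GATA2 and GATA3 are best known from blood, where GATA2 serves stem and progenitor cells and GATA1 red cells, megakaryocytes and mast cells, while GATA3 serves T cells and the sympathetic nervous system. GATA4, GATA5 and GATA6 are best known from heart, gut, gonad and other mesoderm and endoderm derivatives.

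RNA was measured by SmartSeq2 in pools of 20 cells sorted from the aorta-gonads-mesonephros (AGM) region of mouse embryos, the site where the first haematopoietic stem cells emerge from the aorta. All embryos, controls included, carried the genotype Gata3-GFP +/-, so that each held 1 copy of a reporter allele in which green fluorescent protein (GFP) marks cells that transcribe *Gata3*. Endothelial cells (ECs, Cdh5+ and negative for CD41 and CD45) and haematopoietic cells (HCs, sorted on CD41 and CD45) came from embryos at E10.5, and mesenchymal cells (MCs, Pdgfrb+) and cells of the sympathetic nervous system (SNS, Ngfr+) from embryos at E11.5, and each of the 4 cell types was split into a *Gata3*-GFP+ and a *Gata3*-GFP- population of 20 pools. Cell type and embryonic day therefore cannot be told apart between the first pair and the second.

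Of the 160 pools, 153 passed the quality limits, with 1400824 to 16004756 counts on genes and a median of 3801233. The GFP gate reads the *Gata3* locus, so the difference of *Gata3* itself between GFP+ and GFP- pools is a check of the sort and not a finding. In 12 of the 74 MC and SNS pools that passed, 3 in each population, the markers went against the label: pools labelled MC carried a sympathetic and neural crest marker sum of 1885 to 4921 CPM (counts per 1000000 library counts), and pools labelled SNS a mesenchymal sum of 2862 to 5213 CPM. They were the last 3 pools of each population in column order. In them *Gata3* held 123 to 395 CPM in GFP- MCs, where the other pools averaged 9.92. In GFP+ SNS it held 9.96 to 24.3 CPM, against 189. *Gata6* held 94.5 to 163 CPM in GFP- SNS, against 12.4, and 0.814 to 7.90 in GFP+ MCs, against 133. Whether labels were exchanged was not tested. The GFP comparisons at E11.5 are given as labelled and without these 12 pools, and other results say which pools they hold. Another 5 pools at E10.5 (1 of GFP+ ECs and 4 of GFP+ HCs) held over 500 CPM of mesenchymal transcripts. In pools of cells, fewer cells that express a gene and less RNA per cell cannot be told apart, and p-values measure the spread between pools. Per the study's methods, the E10.5 cells were sorted from a few biological replicates, each of several embryos, before being sorted again into pools. Pools of a population therefore share these replicates and are not independent animals, the labels do not say which pools share one, and SEs and p-values that treat pools as independent may be too small.

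The 8 populations each carried a different mixture of GATA transcripts. Per kilobase of exon, the scale on which genes can be compared, the 6 GATA genes summed to 51.8 ± 11.7 CPM per kb (SD, n = 19) in GFP+ ECs and to 9.7 ± 3.72 (n = 20) in GFP- ECs. *Gata3*, *Gata2* and *Gata6* made up 38.0%, 33.8% and 25.5% of the sum in GFP+ ECs (means of the pools' shares). In GFP- ECs the order was *Gata2* at 48.6%, *Gata3* at 32.6% and *Gata6* at 10.3%. The haematopoietic pools were led by *Gata1*, with a mean share of 60.7% in GFP+ HCs, where the sum was 73.2 ± 48.4 CPM per kb (n = 20), and of 46.9% in GFP- HCs, where it was 12.8 ± 11.6. The GFP+ mesenchyme was led by *Gata6*, at 45.8% as labelled, while in GFP- MCs as labelled *Gata3* (37.9%) stood above *Gata6* (32.4%). Leaving out the 12 pools, *Gata6* took 52.9% of the sum in GFP+ MCs, ahead of *Gata3* at 23.4% and *Gata5* at 18.5%, and 39.3% in GFP- MCs, ahead of *Gata3* at 26.8% and *Gata2* at 18.2%. In GFP+ SNS pools *Gata3* took 83.1% as labelled and 93.0% without the 12 pools. In GFP- SNS pools *Gata3* took 53.2% and *Gata4* 19.6% as labelled, and 57.5% and 23.0% without them, a mean share that *Gata4* reached in no other population.

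**Figure D1:**
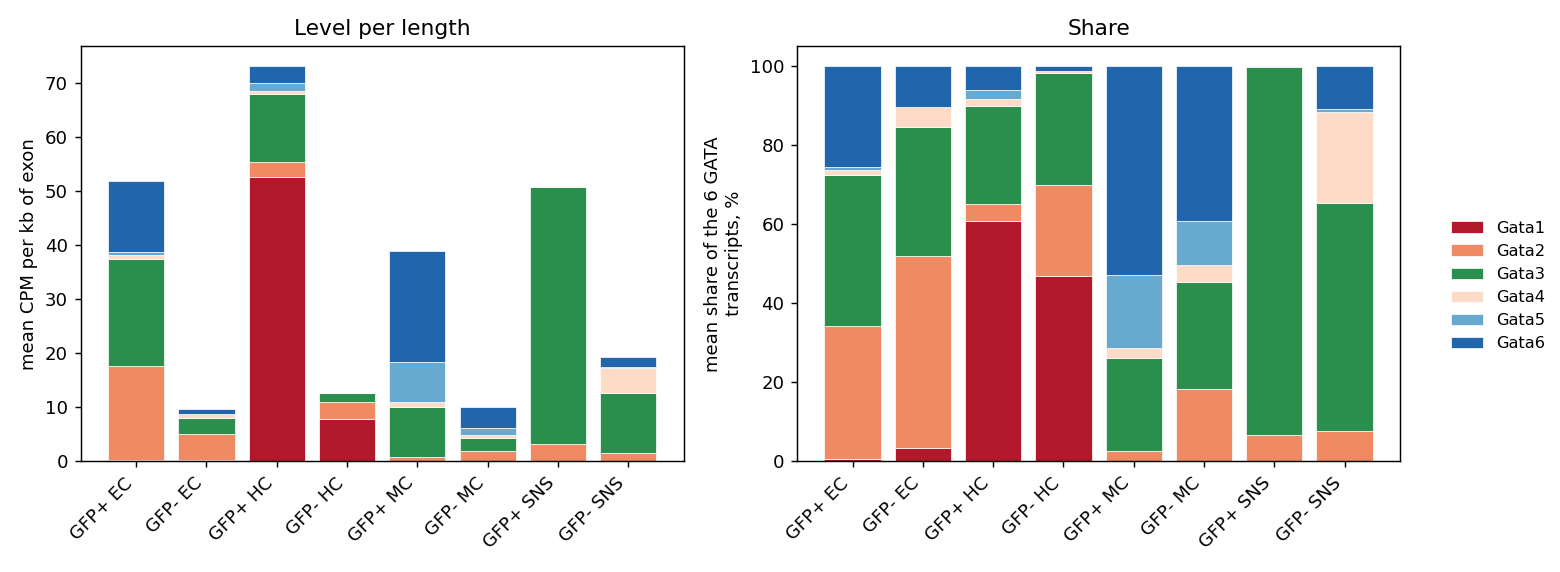
Mean level of the 6 GATA genes per kilobase of exon (left, CPM per kb, stacked) and mean share of their sum (right, percent) in the 8 sorted populations, with MC and SNS without the 12 pools whose markers went against the label. *Gata1* takes 60.7% of the sum in GFP+ HCs, *Gata6* 52.9% in GFP+ MCs and *Gata3* 93.0% in GFP+ SNS, while GFP+ ECs divide it between *Gata3*, *Gata2* and *Gata6*.

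Within each cell type the GFP gates were set against each other in a quasi-likelihood fit (edgeR), and a gene was called at an adjusted p (Benjamini-Hochberg, over all genes tested) under 0.01 with a log2 change above 0.1 in either direction. In ECs 6 of the 9 genes had enough counts to be tested and 4 were called higher in GFP+ pools, one of them *Gata3*, the gene of the gate; of the 15073 genes tested, 19.5% were called higher and 36% in either direction. In HCs 8 were tested and 6 were called higher, *Gata3* again among them (17.1% of all genes). In GFP- HCs no pool held 10 counts of *Gata4*, *Gata5* or *Gata6*, so these passed the count limit through the GFP+ pools alone and could only be higher there, and the HC count is a description. In MCs 2 of 7 were called, both higher (2.21% of all genes), and 4 of 7 without the 12 pools (5.52%). Of these 4, *Zfpm1* reached 10 counts in no GFP- MC pool. It passed the count limit through the GFP+ pools alone and could only be higher there. In SNS 1 of 7 was called higher and 1 lower (2.01% and 1.85% of all genes), and without the 12 pools 2 of 6 higher and 2 of 6 lower (4.94% and 5.48%). In GFP+ SNS no pool held 10 counts of *Gata4*, nor of *Gata6* once the 12 pools were left out. There they passed the count limit through the GFP- pools alone and could only be lower in GFP+ pools. The lower SNS calls are therefore a description. Lower calls took 16.5% of all genes in ECs, 9.53% in HCs and 2.15% in MCs (4.9% without the 12 pools), and calls in either direction 26.6% in HCs, 4.36% in MCs and 3.87% in SNS, or 10.4% in both MCs and SNS once the 12 pools were left out. Without the 4 mesenchymal-high pools 22.8% of genes were called in HCs, 13.7% higher and 9.14% lower.

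Scaling by the ERCC spike-in RNAs instead of the genes themselves moved the EC comparison as a whole. The median log2 change over all genes fell from 0.0995 to -0.596, and GFP+ higher calls from 54.1% to 14.3% of calls. *Gata2*, *Gata3* and *Gata6* remained higher in GFP+ ECs on that scale, by 1.19, 2.16 and 3.18 on the log2 scale. In SNS the same scaling moved the median log2 change from -0.00387 to 0.349 and the share of higher calls from 52.1% to 83.3%, and in MCs it moved that share from 50.7% to 72.4%.

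**Figure D2:**
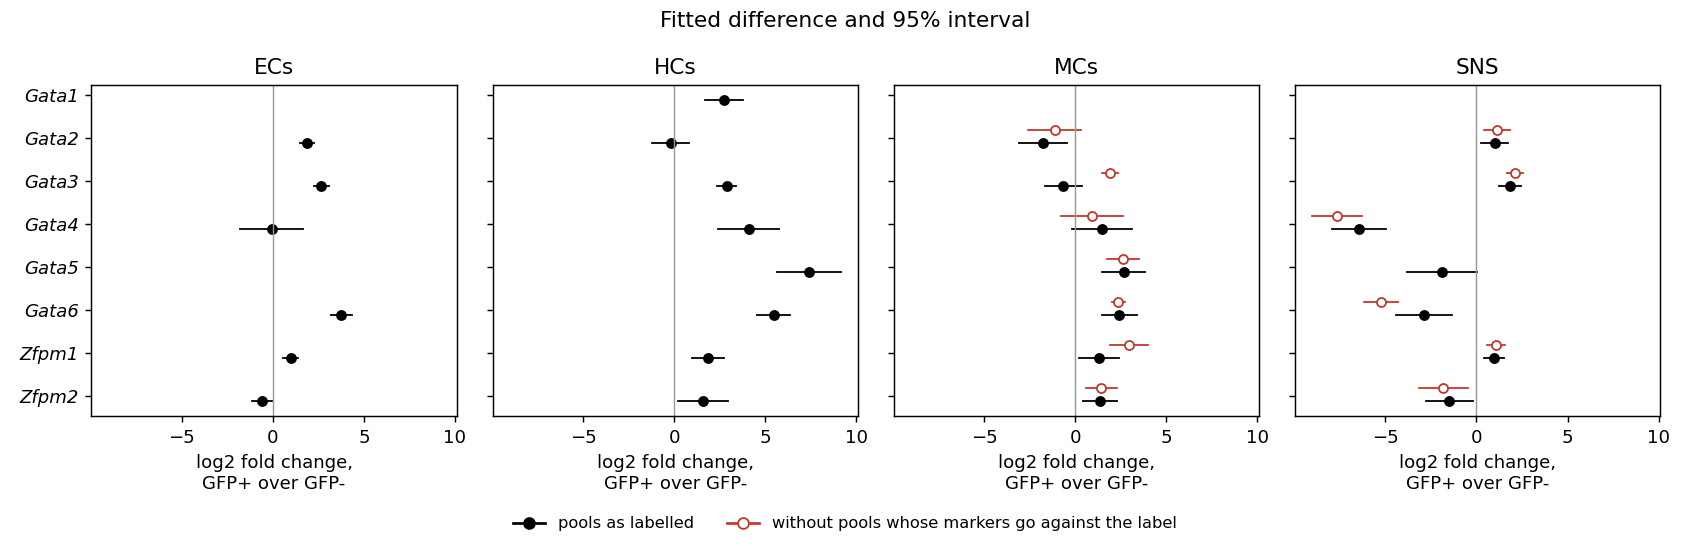
Log2 fold change of each member between *Gata3*-GFP+ and *Gata3*-GFP- pools (x axis; positive is higher in GFP+) by cell type, with 95% intervals from the standard error, as labelled (black) and without the 12 pools whose markers went against the label (red, open). *Gata6* lies at 3.75 in ECs and 5.47 in HCs but at -5.24 in SNS without the 12 pools. The *Gata5* value in HCs is a fit against pools that are all at 0 and depends on the prior count. The *Gata6* values in HCs and in SNS without the 12 pools are fits against pools with at most 5 counts. Those of *Gata4* in HCs and SNS are fits against pools with at most 3 and 8 counts. The sizes of these *Gata6* and *Gata4* values depend on the prior count too.

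*Gata1*, the factor of the red cell and megakaryocyte lineages, was a transcript of the haematopoietic pools. Over the 20 GFP+ HC pools it ran from 2.63 CPM through a median of 76.7 to 453, and over the 20 GFP- HC pools from 0 through 13.7 to 82.1. The groups overlapped, but 9 GFP+ pools lay above every GFP- pool. The difference was 2.75 ± 0.535 on the log2 scale (SE; 6.75-fold; edgeR adjusted p = 6.75e-05). In the other 6 populations *Gata1* averaged at most 0.823 CPM, with no more than 9 counts in any pool, and all 20 GFP+ MC pools were at 0. GFP+ HCs also carried more megakaryocyte transcripts: the sum of 8 megakaryocyte and platelet markers ranged from 1697 through 9972 to 61010 CPM, against 131 through 596 to 4024 in GFP- HCs, with all 8 markers called higher. The macrophage sum ran from 67.8 through 4480 to 10790 CPM in GFP+ HCs and from 3676 through 5651 to 7799 in GFP- HCs.

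Within the GFP+ HC pools *Gata1* followed these markers. Across the 20 pools its level correlated with the megakaryocyte sum at Pearson's r = 0.877 and Spearman's rho = 0.875 (permutation tests, adjusted p = 6e-04 for both, with a raw p of 1e-05 that is the smallest these permutations can give), and at r = 0.889 without the 2 pools farthest from the median. In GFP- HCs the same relation gave r = 0.299 and rho = 0.351 (permutation, adjusted p = 0.486 and 0.380). With the red cell markers, *Gata1* gave r = 0.526 (permutation, adjusted p = 0.0734) and rho = 0.680 (adjusted p = 0.0164) in GFP+ HCs. *Zfpm1*, whose product is the partner through which GATA1 acts in megakaryocytes and red cells, moved with *Gata1* from pool to pool, at r = 0.830 and rho = 0.792 in GFP+ HCs (permutation, adjusted p = 6e-04 and 0.0012; 0.835 without the 2 farthest pools) and at r = 0.712 and rho = 0.679 in GFP- HCs (adjusted p = 0.00497 and 0.0164; 0.705 without the 2 farthest pools). These are among 60 relations computed within populations, of which 12 had an adjusted permutation p under 0.05 for Pearson's r, and 6 of 59 without the 12 pools. Whether the share of megakaryocytes in a pool sets these relations was not tested.

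**Figure D3:**
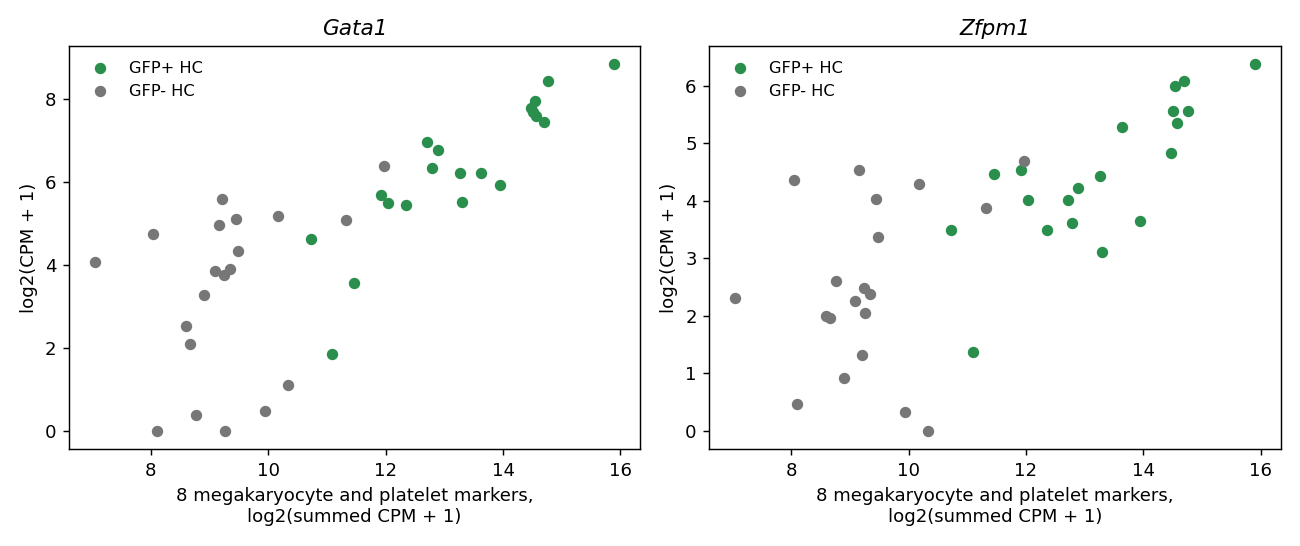
*Gata1* (left) and *Zfpm1* (right) against the sum of 8 megakaryocyte and platelet markers in each HC pool (log2(CPM + 1) on both axes), with GFP+ and GFP- pools in separate colours. Among GFP+ HC pools *Gata1* rises with the marker sum (r = 0.877, n = 20), and among GFP- HC pools the relation is weaker (r = 0.299, n = 20).

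The promoters of this pair are shown because their transcripts moved together in the haematopoietic pools. The 250 bases upstream of the annotated starts in RefSeq (GRCm38.p6) are written in the direction of transcription, with each CG dinucleotide in capitals. The *Gata1* window is chrX:7967911-7968160 on the minus strand and the *Zfpm1* window chr8:122281891-122282140 on the plus strand.
Gata1: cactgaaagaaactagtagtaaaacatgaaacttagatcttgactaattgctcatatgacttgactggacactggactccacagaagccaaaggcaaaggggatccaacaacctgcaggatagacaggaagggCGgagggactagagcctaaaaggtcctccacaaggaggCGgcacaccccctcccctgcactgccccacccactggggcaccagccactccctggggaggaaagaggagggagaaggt
Zfpm1: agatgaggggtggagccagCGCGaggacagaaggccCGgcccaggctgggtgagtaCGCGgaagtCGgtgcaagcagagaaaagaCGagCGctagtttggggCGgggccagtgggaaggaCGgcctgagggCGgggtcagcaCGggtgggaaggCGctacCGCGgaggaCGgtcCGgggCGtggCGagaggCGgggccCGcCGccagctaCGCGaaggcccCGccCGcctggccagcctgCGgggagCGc
They differ in base composition: the *Gata1* window holds 2 CG dinucleotides at 54% G and C, and the *Zfpm1* window 28 at 73.2%, where the median over 32851 windows of this length is 6. Of all windows, 29% hold 2 or fewer and 7.61% hold 28 or more. None of the 6 windows found for 5 of the members (*Gata1*, *Gata2*, *Gata3*, *Gata5* and *Zfpm1*) contains the letters NGATAN on either strand with A or T as the first N and A or G as the last, letters that 26.5% of all windows hold at least once. The *Gata3* window and the *Gata2* window at chr6:88198414-88198663 lie wholly within annotated exons, and 20 bases of the *Gata5* window do.

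*Gata2*, the GATA factor of haemogenic endothelium and blood stem cells, was highest in GFP+ ECs. The 19 GFP+ EC pools ran from 33.7 CPM through a median of 90.3 to 138, and the 20 GFP- EC pools from 7.09 through 25.4 to 49.0. The groups overlapped slightly, with 17 of 19 GFP+ pools above every GFP- pool, and the difference was 1.87 ± 0.194 on the log2 scale (3.66-fold; edgeR adjusted p = 8.42e-11). In HCs no difference was found: *Gata2* averaged 14.85 ± 14.69 CPM (SD, n = 20) in GFP+ and 17.02 ± 19.49 (n = 20) in GFP- pools, with a log2 difference of -0.192 (95% interval -1.22 to 0.83; edgeR adjusted p = 0.805). Its GFP contrast was larger in ECs than in HCs by 2.09 ± 0.644 (edgeR interaction, adjusted p = 0.00698), a call that was lost without the 5 E10.5 pools high in mesenchymal transcripts (2.04, adjusted p = 0.0131). In GFP- HCs *Gata2* moved with *Gata1* across pools (r = 0.643, rho = 0.660; permutation, adjusted p = 0.0163 and 0.0170; 0.703 without the 2 farthest pools). The sum of 7 mast cell and basophil markers, cells that also use GATA2, ran from 0.785 through 43.6 to 166 CPM in GFP- HCs and from 0 through 8.47 to 305 in GFP+ HCs.

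At E11.5 *Gata2* did not pass the test in either cell type. GFP+ MCs averaged 4.99 CPM and GFP- MCs 16.9, or 4.65 and 10.2 without the 12 pools (log2 -1.76, edgeR adjusted p = 0.0937, and -1.14, adjusted p = 0.322). In SNS the means were 16.5 and 8.29 CPM, or 17.5 and 8.05 without the 12 pools, with log2 differences of 0.997 (edgeR adjusted p = 0.0970) and 1.11 (adjusted p = 0.0286). The *Gata2* levels of the 7 populations below GFP+ ECs lay between 4.99 and 25.2 CPM, and no neighbours in that order differed beyond their spread (edgeR, all 8 populations in 1 fit). Populations further apart in that order were not all alike. Over all populations 13 of 28 pairs were called for *Gata2*, more than the pairs that hold GFP+ ECs.

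*Gata3* separated the GFP gates in ECs, HCs and SNS. In ECs the pools ran from 28.5 CPM through a median of 77.9 to 174 in GFP+ and from 4.37 through 10.45 to 29.6 in GFP-, and 18 of 19 GFP+ pools lay above every GFP- pool. GFP+ ECs also carried a higher sum of 10 markers of the mesonephric duct, an epithelium that expresses *Gata3*, at 42.4 through 85.1 to 135 CPM against 0.699 through 3.52 to 11.3 in GFP- ECs. Of these 10 markers 4 had enough counts to be tested and 3 were called higher. In HCs 19 of 20 GFP+ pools lay above every GFP- pool in *Gata3*, with means of 49.98 and 6.90 CPM. In SNS, where GATA3 is needed for noradrenaline synthesis, GFP+ pools averaged 160 CPM and GFP- pools 44.6. Without the 6 discordant pools, the GFP+ SNS pools (111 through 188 to 306 CPM, n = 15) and the GFP- SNS pools (11.2 through 39.3 to 93.9, n = 16) no longer overlapped.

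In the mesenchyme the result depended on the 12 pools. As labelled, *Gata3* averaged 37.6 CPM in GFP+ MCs and 59.4 in GFP- MCs (log2 -0.659 ± 0.522; edgeR adjusted p = 0.496). The 3 GFP- MC pools with sympathetic markers held 123, 353 and 395 CPM of *Gata3*. Without the 12 pools GFP+ MCs ran from 19.7 CPM through 35.9 to 70.4 (n = 17) and GFP- MCs from 2.52 through 8.96 to 19.02 (n = 14), with no overlap, at 1.88 ± 0.220 on the log2 scale (edgeR adjusted p = 9e-08).

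**Figure D4:**
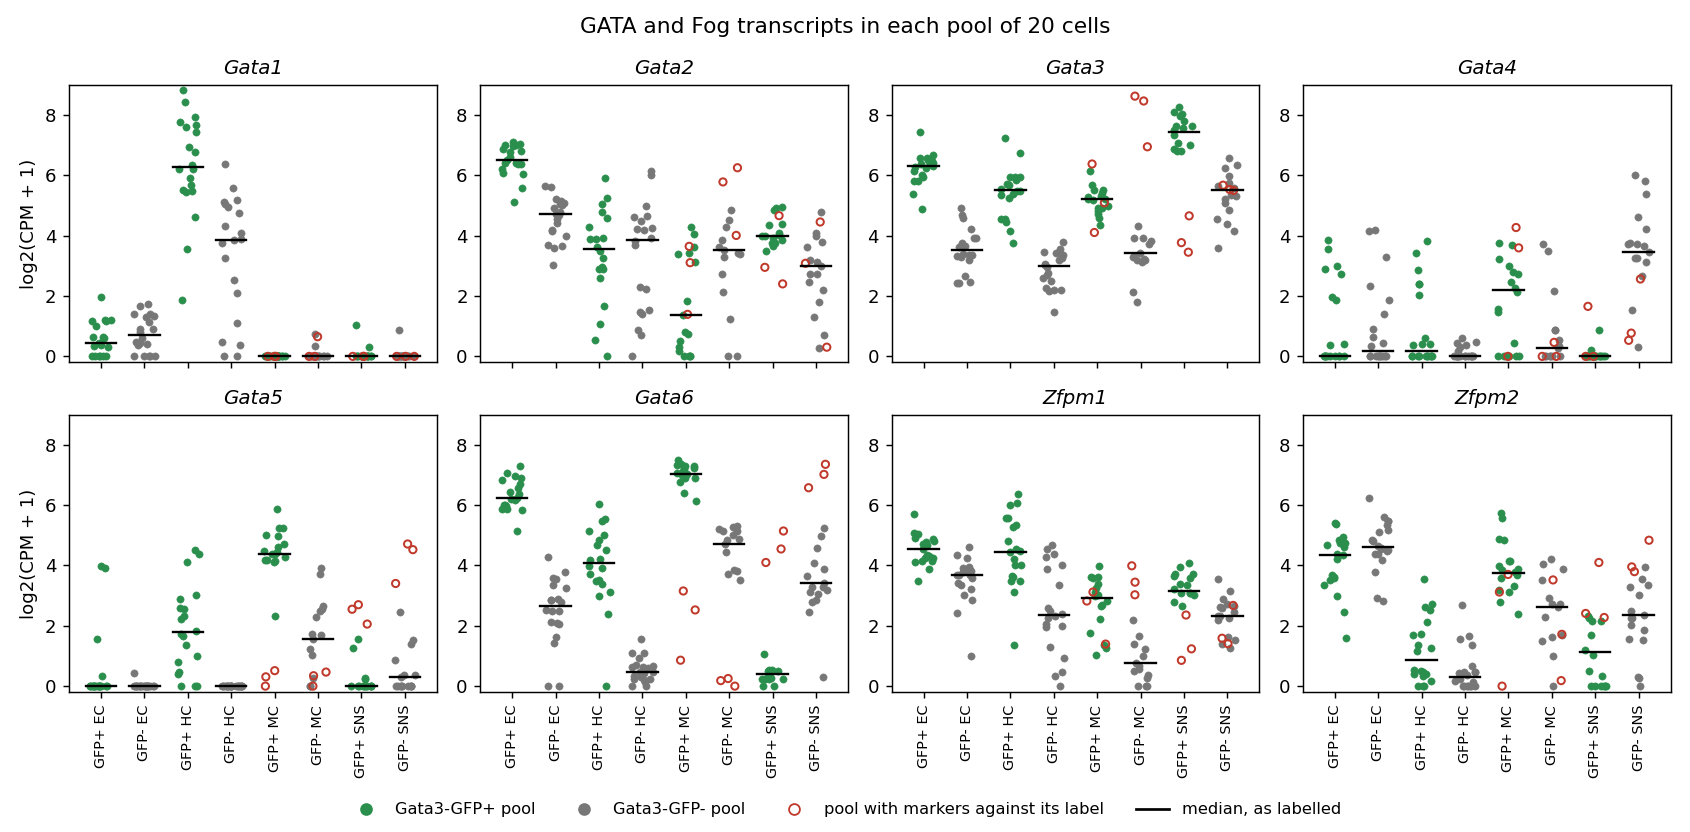
Level of each member in every pool that passed (log-scaled CPM axis), by population; red open points are the 12 pools whose markers went against the label and black lines the medians as labelled. *Gata1* is high in HC pools alone, *Gata6* separates GFP+ from GFP- EC pools without overlap, and the 3 highest *Gata3* pools among GFP- MCs are red.

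*Gata6*, a factor of endoderm, heart and vascular smooth muscle, marked the GFP+ gate in 3 of the 4 cell types. In ECs it ran from 34.5 CPM through a median of 74.6 to 155 in the 19 GFP+ pools and from 0 through 5.33 to 18.3 in the 20 GFP- pools. The groups did not overlap, and the difference of 3.75 ± 0.295 on the log2 scale (13.4-fold; edgeR adjusted p = 4.18e-14) exceeded that of *Gata3* (2.66 ± 0.216), the gene of the gate, as a value; this pair was not tested against each other. Of the mesenchymal markers, 7 of 7 tested were also higher in GFP+ ECs, where their sum ran from 25.9 through 92.0 to 1559 CPM, against 3.87 through 15.8 to 72 in GFP- ECs. Without the 1 EC pool high in them, 6 of 7 were higher and the *Gata6* difference was 3.66 ± 0.296 (edgeR adjusted p = 1.32e-13). Their part in the *Gata6* difference was not tested. In HCs GFP+ pools averaged 20.9 ± 16.3 CPM (SD, n = 20) and no GFP- pool held more than 5 counts, at a mean of 0.508 CPM (log2 5.47 ± 0.459; edgeR adjusted p = 1.67e-11). Without the 4 GFP+ HC pools high in mesenchymal transcripts the *Gata6* mean was 14.4 CPM and the log2 difference 4.86. The mesenchymal marker sum in HCs ran from 17.4 through 326 to 971 CPM in GFP+ and from 3.37 through 35.6 to 175 in GFP- pools, and its part in the *Gata6* difference was not tested.

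In MCs, where *Gata6* reached its highest level, the GFP+ mean was 114 CPM and the GFP- mean 21.3 (log2 2.41 ± 0.490; edgeR adjusted p = 0.00108). Without the 12 pools GFP+ MCs ran from 70.0 through 133 to 178 CPM and GFP- MCs from 10.4 through 28.2 to 38.4, with no overlap (log2 2.36 ± 0.177, adjusted p = 1.01e-11). In SNS the direction was the opposite. As labelled *Gata6* averaged 4.30 CPM in GFP+ and 30.8 in GFP- pools (log2 -2.89 ± 0.787; edgeR adjusted p = 0.0154, not called), and without the 12 pools no GFP+ pool held more than 5 counts (mean 0.305 CPM) while GFP- pools ran from 0.237 through 8.72 to 37.2 CPM (log2 -5.24 ± 0.470, adjusted p = 7.54e-10). The GFP contrasts of *Gata6* in SNS and ECs differed by 6.67 ± 0.748 on the log2 scale, those in SNS and MCs by 5.32 ± 0.739 (edgeR interactions, adjusted p = 2.14e-13 and 9.55e-09), and without the 12 pools by 8.995 and 7.58. Markers of other cells were lower in GFP+ SNS too once the 12 pools were left out: 8 of 8 mesenchymal markers, with sums of 101 through 201.5 to 336 CPM against 369 through 505 to 899.7 in GFP- SNS, and 3 of 3 coelomic markers tested. As labelled, 0 of 8 and 2 of 3 were lower. The part of such cells in the *Gata6* difference was not tested.

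*Gata4*, which acts in the heart and in the gonadal ridge, was found mainly in GFP- SNS pools. As labelled it ran there from 0.237 CPM through a median of 10.1 to 63.4 (n = 19), and in GFP+ SNS pools 15 of 18 were at 0 and the highest held 2.16 CPM. The log2 difference was -6.44 ± 0.752 (edgeR adjusted p = 5.2e-07), and -7.68 ± 0.699 without the 12 pools (adjusted p = 9.99e-10). No GFP+ SNS pool held more than 8 counts of *Gata4*, so it passed the count limit through the GFP- pools alone. The same pools carried transcripts of the coelomic epithelium and gonadal ridge. The sum of 6 such markers, among them *Wt1*, *Lhx9* and *Nr5a1*, ran from 0.936 through 128 to 295 CPM in GFP- SNS and from 0.218 through 1.44 to 6.74 in GFP+ SNS without the 12 pools, with 1 of the 6 markers at 0 in every GFP- pool. Across the 16 GFP- SNS pools *Gata4* correlated with this sum at r = 0.694 and rho = 0.806 (permutation, adjusted p = 0.0385 and 0.00747; 0.730 without the 2 farthest pools), and across all 19 at r = 0.662 and rho = 0.839. The part of such cells in the *Gata4* difference was not tested.

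In MCs *Gata4* reached 10 counts in 12 of 20 GFP+ and 3 of 17 GFP- pools, with means of 4.83 and 1.70 CPM (log2 1.46 ± 0.847; edgeR adjusted p = 0.315), or 3.96 and 2.04 without the 12 pools (log2 0.919, adjusted p = 0.534). In ECs and HCs it was sparse and uneven. In ECs 10 of 19 GFP+ and 10 of 20 GFP- pools were at 0, the highest pools held 13.6 and 17.3 CPM, and the log2 difference was -0.0662 (95% interval -1.78 to 1.64; edgeR adjusted p = 0.957). In HCs it averaged 2.11 CPM in GFP+ and 0.0980 in GFP- pools, where 14 of 20 were at 0 and the highest had 3 counts (edgeR adjusted p = 1.64e-04). That call rests on few pools, 5 of 20 with at least 10 counts, and without the 4 GFP+ HC pools high in mesenchymal transcripts *Gata4* fell under the count limit and could not be tested.

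*Gata5*, a factor of heart and smooth muscle, was a transcript of GFP+ MCs. As labelled it averaged 20.7 ± 14 CPM (SD, n = 20) there and 3.23 ± 4.19 (n = 17) in GFP- MCs, with a log2 difference of 2.66 ± 0.607 (edgeR adjusted p = 0.00338). Without the 12 pools GFP+ MCs ran from 4.02 through 20.8 to 57.8 CPM and GFP- MCs from 0 through 2.30 to 14.3, and 16 of 17 GFP+ pools lay above every GFP- pool. In HCs all 20 GFP- pools were at 0 and 17 of 20 GFP+ pools were not, at a mean of 5.004 CPM, which is at least 6.07-fold higher than a floor of 3 counts per pool (edgeR adjusted p = 7.8e-07), and at least 5.64-fold without the 4 mesenchymal-high pools. In ECs *Gata5* reached 10 counts in 3 of 19 GFP+ pools and in no GFP- pool, where 19 of 20 were at 0, too few for the test.

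**Figure D5:**
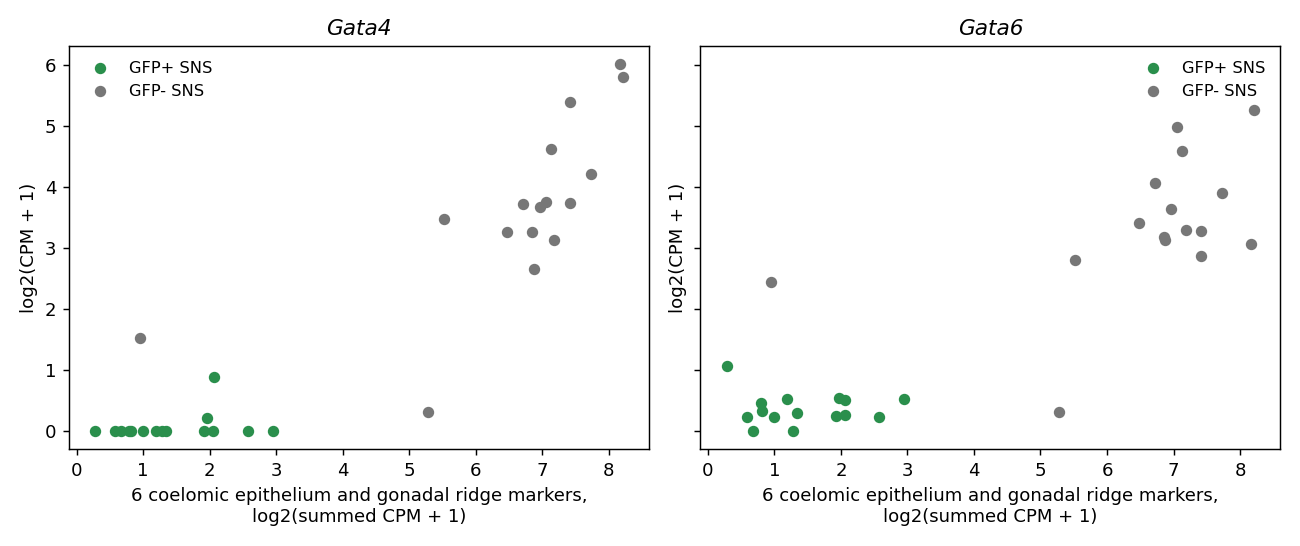
*Gata4* (left) and *Gata6* (right) against the sum of 6 coelomic epithelium and gonadal ridge markers in each SNS pool (log2(CPM + 1) on both axes), without the 6 SNS pools whose markers went against the label. *Gata4* rises with the sum among GFP- pools (r = 0.694, n = 16). GFP+ pools hold at most 0.850 CPM of *Gata4* and 1.09 of *Gata6*, at marker sums of 0.218 to 6.74 CPM.

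The Fog cofactors had different orders of level. *Zfpm1* had its highest means in GFP+ HCs and GFP+ ECs, and *Zfpm2* in ECs. In GFP+ HCs *Zfpm1* ran from 1.58 CPM through a median of 20.9 to 82.1, against 0 through 4.08 to 24.7 in GFP- HCs. The groups overlapped, with 8 GFP+ pools above every GFP- pool, and the log2 difference was 1.86 ± 0.453 (3.63-fold; edgeR adjusted p = 0.00105). In ECs it ran from 10.2 through 22.3 to 51.6 CPM in GFP+ and from 1.004 through 11.98 to 23.2 in GFP- pools, a difference of 0.973 ± 0.217 (edgeR adjusted p = 2.63e-04) that was 0.432 with ERCC scaling (adjusted p = 0.195) and 1.004 with all populations in 1 fit (adjusted p = 0.0254). Among E11.5 pools *Zfpm1* was called once the 12 pools were left out: it averaged 6.81 CPM in GFP+ and 0.885 in GFP- MCs (log2 2.94 ± 0.532; edgeR adjusted p = 1.09e-04) and 9.65 and 4.56 CPM in SNS (1.06 ± 0.241, adjusted p = 0.00156). As labelled, the differences were 1.3 (edgeR adjusted p = 0.139) and 0.958 (adjusted p = 0.0283). Without the 12 pools no GFP- MC pool held more than 8 counts of *Zfpm1*. In MCs it then passed the count limit through the GFP+ pools alone.

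*Zfpm2*, the cofactor of GATA4 in heart and gonad, was called by edgeR in 0 of the 4 GFP comparisons as labelled, with adjusted p between 0.0610 and 0.164, although the unadjusted p was under 0.05 in all 4, and by DESeq2 in 0. It was highest in ECs, where GFP- pools averaged 28.3 ± 15.9 CPM (SD, n = 20) and GFP+ pools 19.1 ± 11.3 (n = 19), a log2 difference of -0.600 (edgeR adjusted p = 0.0761), which ERCC scaling moved to -1.26 (adjusted p = 5.36e-04). GFP+ MCs averaged 16.1 and GFP- MCs 6.13 CPM (log2 1.37, edgeR adjusted p = 0.0610), and 17.8 and 6.52 without the 12 pools (1.42, adjusted p = 0.0200). HC pools held the least, 2.03 CPM in GFP+ and 0.700 in GFP-. The GFP contrast of *Zfpm2* in SNS, where GFP+ pools averaged 2.46 and GFP- pools 6.93 CPM, lay 2.90 ± 0.749 below that in MCs (edgeR interaction, adjusted p = 0.0027). Leaving out the 12 pools, the SNS means were 1.34 and 4.80 CPM and this difference 3.23 ± 0.769 (adjusted p = 0.00146).

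9230102O04Rik was at or near 0 in almost every pool. It lies at chr2:9883041-9889540 on the strand of *Gata3* (chr2:9857078-9890034, GRCm38), within its span, and other genes cover 52.3% of its exon bases, *Gata3* 8.24%. Its mean was at most 0.147 CPM in any population, and the highest level in any pool 1.22 CPM, in GFP+ SNS. The most counts in 1 pool were 13, in a GFP+ HC pool at 0.834 CPM, while the other 19 pools of that group were at 0. It passed the count limit in no comparison. The counting could have set aside reads on shared bases as ambiguous, a class that took 7.15% to 30.4% of reads per pool, and strand use was not stated. *Gata5* shares 7.87% of its exon bases with a transcript on the opposite strand and *Gata3* shares 5.83% with other genes, while *Gata1*, *Gata2*, *Gata4*, *Zfpm1* and *Zfpm2* share none.

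Each member was also tested over the 28 pairs of populations. As labelled 139 of 224 tests were called, where 34.8% of tests over all genes were called, and without the 12 pools 150 of 224 (37.1% over all genes). *Gata6* led with 23 of 28 pairs, or 24 without the 12 pools, and *Gata2* came last with 13, or 12, while *Gata3* went from 18 to 23 and *Gata5* from 16 to 21. Some members passed the count limit of this fit only through populations where they were high, so these counts are a description. In the order of mean levels as labelled, *Gata1* in GFP+ HCs stood above GFP- HCs (edgeR adjusted p = 3.68e-08), which stood above GFP- ECs (adjusted p = 1.08e-13). Outside HCs no pool held more than 9 counts of *Gata1*. It passed the count limit through the HC pools alone, so the direction of the second difference was fixed. *Gata3* in GFP+ SNS stood above GFP+ ECs (log2 1.03, adjusted p = 0.00806), and the following 4 populations down to GFP+ MCs did not differ from their neighbours beyond the spread. Without the 12 pools *Gata3* in GFP+ ECs stood above GFP+ HCs (log2 0.644, edgeR adjusted p = 0.00611), and GFP- MCs moved from 59.4 CPM, the third highest mean, to 9.92 CPM, the seventh. As labelled *Gata6* did not differ between GFP+ MCs and GFP+ ECs (log2 0.417 ± 0.461; edgeR adjusted p = 0.476), and *Zfpm1* not between GFP+ HCs and GFP+ ECs (log2 0.287 ± 0.377, adjusted p = 0.542).

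Whether the GFP contrast itself differed between cell types was tested as an interaction. By pair of cell types, 3 of 8 members were called between ECs and HCs (22.1% of all genes), 2 between ECs and MCs (14.6%), 3 between ECs and SNS (22.1%), 4 between HCs and MCs (17.3%), 4 between HCs and SNS (17%) and 6 between MCs and SNS (8.88%). When the 12 pools were left out the counts were, in the same order, 5 (23.9%), 3 (13.5%), 3 (21.3%), 2 (17%), 4 (17.7%) and 3 (6.51%). For *Zfpm1* 0 of the 6 interactions were called as labelled by edgeR or DESeq2, at edgeR adjusted p of 0.222 to 0.971 and 0 with an unadjusted p under 0.05, and 1 was called without the 12 pools, between ECs and MCs (-1.97, adjusted p = 0.00477). The GFP- MC pools in that test held at most 8 counts of *Zfpm1*. The 3 *Gata3* interactions that were called all involved MCs, and without the 12 pools edgeR called 0 of the 6 (3 at an unadjusted p under 0.05).

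Partners and targets of GATA factors were described in the same comparisons from lists chosen by function, and their counts stand beside 36% of all genes called in ECs, 26.6% in HCs, 4.36% in MCs and 3.87% in SNS, or 10.4% in both E11.5 cell types without the 12 pools. Of 14 partners of the haematopoietic GATA complex, 13 were tested in ECs, 10 were higher and 1 lower in GFP+ pools, with a median log2 change of 0.685. *Runx1*, required for the emergence of blood from endothelium, was higher by 3.07 ± 0.555, *Spi1* (PU.1, an antagonist of GATA1) by 2.32 ± 0.429 and the corepressor *Cbfa2t3* by 2.04 ± 0.141 (edgeR adjusted p at most 1.83e-05). The haematopoietic marker sum ran from 171 through 256 to 381 CPM in GFP+ ECs and from 39.7 through 84.2 to 126 in GFP- ECs. In HCs 14 were tested, with 2 higher and 1 lower: *Gfi1b*, a repressor of the red cell and megakaryocyte lineages, by 3.04 ± 0.586 and *Tcf12* by 0.982 ± 0.168, while *Spi1* fell by 1.18. At E11.5 1 of 9 was higher and 1 lower in MCs, and 1 of 8 higher in SNS. With the 12 pools left out, 1 of 9 was higher and 2 lower in MCs, and 2 of 7 higher in SNS. Of 14 NuRD and CtBP corepressors that Fog proteins bind, all tested in ECs, 1 was higher and 3 lower in ECs (among them *Rbbp4* and *Rbbp7*, at -0.610 and -0.674), 3 were higher in HCs (*Ctbp1* 0.463, *Hdac2* 0.655, *Mta3* 0.734), 0 were called in MCs (5 at an unadjusted edgeR p under 0.05, 0 by DESeq2) and 1 was lower in SNS (*Mbd2*, -0.689). Leaving them out, these counts were 0 in MCs, and 1 higher (*Hdac1*, 0.282) and 1 lower in SNS. Among 9 other genes with GATA-type zinc fingers, 1 was higher in ECs (*Gatad2b*, 0.637), 2 in HCs, and 0 in MCs and SNS (1 and 2 at an unadjusted edgeR p under 0.05, 0 by DESeq2).

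Calls among known targets were more numerous in HCs and ECs, as they were over all genes. Of 15 erythroid and megakaryocytic GATA targets, a list that holds *Zfpm1* itself, 14 were tested in HCs, and 9 were higher and 1 lower in GFP+ pools (median log2 change 2.20, beside 0.0488 over all genes). Those that rose were led by platelet genes, the von Willebrand receptor subunits *Gp1ba* (5.38 ± 0.629) and *Gp9* (4.51 ± 0.584) and the chemokine *Pf4* (3.82 ± 0.418). The 1 that fell was *Klf1*, the red cell regulator, named after its value was seen (-3.03 ± 0.845; edgeR adjusted p = 0.00396), and without the 4 mesenchymal-high pools 0 were lower. In ECs 5 of 9 were higher and 0 lower. At E11.5 0 of 4 were called in MCs and in SNS as labelled (1 and 2 at an unadjusted edgeR p under 0.05, 0 by DESeq2), and *Zfpm1* alone in each without the 12 pools. Of 12 genes linked to GATA2 in stem cells, mast cells and vessels, 8 were tested in ECs, with 5 higher and 2 lower: *Vwf* (4.67 ± 0.216) and *Edn1* (3.38 ± 0.274) were higher, and the lymphatic genes *Prox1* (-3.36 ± 0.540) and *Lyve1* (-2.78 ± 0.521, named after its value was seen) were lower. In HCs 3 of 11 were higher, one of them *Gata1*, and 2 lower, with the mast cell gene *Hdc* at -3.26 ± 0.784. In MCs and SNS 0 of 5 were called as labelled (1 and 2 at an unadjusted edgeR p under 0.05, 0 by DESeq2), and 1 of 5 in each, *Kit*, was higher without the 12 pools.

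Genes linked to GATA3 in sympathetic cells were higher in GFP+ pools of SNS, HCs and ECs. In SNS 4 of 10 were higher as labelled and 8 of 10 without the 12 pools, among them the rate-limiting enzyme of noradrenaline synthesis *Th* (3.59 ± 0.577) and the regulators *Phox2a* (3.11 ± 0.768) and *Isl1* (3.03 ± 0.609). In MCs 3 of 10, *Th*, *Dbh* and *Phox2a*, were lower in GFP+ pools as labelled, but without the 12 pools 4 were tested and 2 were higher, *Isl1* (3.17 ± 0.361) and *Hand2* (1.78 ± 0.406). In HCs 9 of 10 were higher, and the sympathetic marker sum ran from 5.64 through 88.7 to 1990 CPM in GFP+ and from 1.999 through 11.2 to 27.8 in GFP- HC pools, with 7 of 8 higher without the 4 mesenchymal-high pools. In ECs 3 were tested and all were higher, *Isl1* (5.06 ± 0.336), *Dbh* (2.56 ± 0.678) and *Gata2*, which is on this list too. The sympathetic sum ran from 281 through 383 to 746 CPM in GFP+ ECs and from 15.4 through 45.8 to 148 in GFP- ECs. The part of such cells in these differences was not tested. Of 10 lymphoid genes linked to GATA3, 4 of 6 tested were higher in GFP+ HCs, with *Bcl11b* at 4.86 ± 0.619 and *Tcf7* at 3.41 ± 0.784, both T cell lineage regulators, and 2 of 4 in GFP+ ECs, *Rora* (2.76 ± 0.388) and *Id2* (0.746 ± 0.145). The lymphoid marker sum ran from 5.16 through 47.0 to 264 CPM in GFP+ HCs and from 0.563 through 9.37 to 72.1 in GFP- HCs. In MCs 0 of 5 lymphoid genes were called (1 at an unadjusted edgeR p under 0.05, 0 by DESeq2), also 0 without the 12 pools, and in SNS 1 of 5, or 2 of 5 without them, *Id2* and *Bcl11b*.

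Partners of GATA4, GATA5 and GATA6 in mesoderm changed in both directions. Of 15 genes, 5 were tested in ECs and 3 were lower in GFP+ pools, *Nr2f2*, a regulator of venous identity, by -3.51 ± 0.365, *Bmp4* by -2.09 ± 0.393 and *Mef2c* by -0.663 ± 0.107, none higher. In HCs 7 of 11 were higher and 1 lower. In MCs 1 of 11 was higher and 1 lower as labelled, *Mef2c* (1.92 ± 0.188) and the mesenchymal regulator *Foxf1*, and 3 and 1 without the 12 pools. In SNS 1 of 11 was higher and 3 lower as labelled, and 2 higher and 5 lower without the 12 pools, where *Tcf21*, *Wt1* and *Lhx9*, regulators of the urogenital mesoderm, stood at -6.78 ± 0.557, -6.29 ± 0.440 and -6.29 ± 0.640, in the direction of *Gata4* and *Gata6*. The list shares *Wt1*, *Lhx9* and *Nr5a1* with the coelomic markers.

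Across the 153 pools as labelled, the genes whose log2 CPM was most like each member's are given as a description, since pools of one population share their origin. Among the genes most like *Gata1* were *Treml1* (r = 0.944), *Gfi1b* (0.94), *Gp9* (0.934) and *Slc14a1* (0.923). *Gata3* was closest to *Isl1* (r = 0.83), followed by *Tanc2*, *Sox6*, *Ret* and *Uchl1* (0.779 to 0.733). *Gata2* had looser neighbours, *Slc18a2* (r = 0.671), Gm14207, *Cldn5*, *Zfp69* and *Kdr* (0.652 to 0.642). *Gata4* was closest to the gonadal gene *Lhx9* (r = 0.665) and then to *Rpp25*, *Nr5a1*, *Dct* and *Amhr2* (0.627 to 0.546). *Gata6* was closest to *Tns1* (r = 0.873), *Ccdc80*, *Pcsk5*, *Pde3a* and *Nfia* (0.864 to 0.844), and among those most like *Gata5* were *Adamts2* (r = 0.773), *Ntrk2*, *Iigp1* and *Corin* (0.771 to 0.766). *Zfpm1* was closest to *Parvb* (r = 0.677) and *Vwf* (0.672), and *Zfpm2* to the basement membrane collagens *Col4a1* (r = 0.797) and *Col4a2* (0.784). These lists depend on the measure. Ranked by Spearman's rho, 0 of the 5 genes most like *Gata5* were kept and 2 of 5 for *Gata1*. For *Gata2*, *Gata4*, *Zfpm1* and *Zfpm2* 3 of 5 were kept, and 4 of 5 for *Gata3* and *Gata6*.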

How the data were processed

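RNA from pools of 20 sorted cells was read by SmartSeq2. The deposited table holds the authors' raw read counts per gene and ERCC RNA for 160 pools, neither filtered nor normalized. The study's methods name STAR and HTSeq, while the submitters' processing notes name GSNAP, HTSeq 0.5.3p3 and mm10, so the aligner is uncertain, and the counting mode for strand and overlap was not stated. Column names give the population of a pool, and 0 columns were left unused.

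The study's limits were applied: a pool needed over 500000 reads assigned to a gene or an ERCC RNA, a gene share over 20%, and mitochondrial and ERCC shares under 20%. GENCODE M21 (GRCm38) gave symbols for 45229 of the 46078 genes. The members and gene lists were chosen with earlier results of these data known. CPM used edgeR 4.0.16 effective library sizes (TMM). A gene was tested if 5 or more pools in the comparison held 10 or more of its counts, by edgeR's robust quasi-likelihood fit within each cell type, and in 1 fit of all 8 populations for pairs and interactions. Correlations used log2(CPM + 1) and permutation tests with 100000 resamples. Floors are 3 counts per pool, and cover counting error only. The named genes were all 9 members, up to 3 called genes per list and comparison with the largest changes, and the 5 genes with the highest Pearson r to each member, of which some are not reported here. Alternatives were DESeq2 1.42.0, its size factors, ERCC size factors, 1 fit, no gene filter, all pools, over 8000 detected genes, and the study's own test, with an overestimated variance, on logs of counts scaled by scran 1.30.0. Leaving out the 12 pools against their label or the 5 with mesenchymal transcripts was added after seeing the data. Scripts were tested on simulated data. R 4.3.3 and Python 3.11.15 were used.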

Additional observations from a re-analysis of the deposited data

Results flagged for a closer look

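The difference between GFP+ and GFP- pools was not the same in every cell type. Of 48 interaction tests on the members (edgeR, 1 fit of 8 populations, difference of 2 log2 fold changes), 22 passed the threshold as labelled and 20 without the 12 pools whose markers went against the label. For *Gata1* the contrast in ECs lay 3.27 below that in HCs (-3.27) and that in HCs 4.73 above that in MCs. The second was no longer called without the 12 pools (4.31, edgeR interaction, adjusted p = 0.0749). *Gata1* had at most 3 counts in any MC pool and at most 9 in any EC pool, too few for the test within either cell type. Both values therefore rest on the HC pools, and their sizes depend on the prior count. For *Gata2* the contrast in ECs exceeded that in HCs by 2.09 and that in MCs by 3.67, and the contrast in MCs minus that in SNS was -2.77. The first was not called without the 5 E10.5 pools high in mesenchymal transcripts (2.04, adjusted p = 0.0131), and the last not without the 12 pools (-2.28, adjusted p = 0.0210).

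For *Gata3* the contrast in MCs lay below those in ECs (3.36) and HCs (3.55), and MCs minus SNS gave -2.52. Without the 12 pools these became 0.798, 0.989 and -0.205, and edgeR called 0 of them. The gate reads *Gata3*, so these values describe the sort.

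As labelled, the contrast of *Gata4*, *Gata5* and *Gata6* in SNS differed from that in every other cell type. *Gata4* gave 6.33 for ECs minus SNS, 10.497 for HCs minus SNS and 7.85 for MCs minus SNS, and -4.17 for ECs minus HCs. No GFP- HC pool held more than 3 counts of *Gata4* and no GFP+ SNS pool more than 8. The sizes of all these *Gata4* values therefore depend on the prior count. *Gata5* gave 7.07, 9.30 and 4.56 for ECs, HCs and MCs against SNS and 4.74 for HCs minus MCs. The GFP- HC pools were all at 0 for *Gata5*, and 19 of 20 GFP- EC pools were too, with at most 1 count. The values that involve HCs or ECs therefore depend on the prior count. In SNS the 3 GFP- pools against their label held 9.58 to 25.2 CPM of *Gata5*. Without the 12 pools the SNS means were 0.252 CPM in GFP+ and 0.600 in GFP- pools, too few counts for the test within SNS. MCs minus SNS was then not called (3.76, edgeR interaction, adjusted p = 0.0112). *Gata6* gave 6.67, 8.43 and 5.32 for ECs, HCs and MCs against SNS and 3.12 for HCs minus MCs, the last not called without the 5 mesenchymal-high pools (2.59, edgeR interaction, adjusted p = 0.0114). No GFP- HC pool held more than 5 counts of *Gata6*, so the sizes that involve HCs depend on the prior count. For *Zfpm2* the contrast in SNS lay below those in HCs (3.17) and MCs (2.90).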

How the results depend on the processing

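As a ratio, the number of genes called between GFP+ and GFP- pools moved most in the E11.5 cell types; in ECs it ran from 5317 to 6663 (5424 as reported) and in HCs from 3045 to 5659 (4307). In MCs it was 698 as labelled, 381 with ERCC size factors (276 higher, 105 lower), 1130 with 1 fit of 8 populations and 1586 without the 12 pools; in SNS it was 624, 1013 with ERCC size factors and 1631 without the 12 pools. With 1 fit, the share of calls higher in GFP+ pools was 74.0% in HCs, against 64.2%, and 40.3% in SNS, against 52.1%. Correlations with an adjusted p under 0.05 numbered 12, then 19 with ERCC size factors and 6 without the 12 pools. The log2 change of *Gata3* in MCs (-0.659) turned to 1.03 in DESeq2's Wald test, 1.09 in the study's test and 1.88 without the 12 pools. The study's test also turned *Gata4* in ECs to 0.141 and *Gata2* in HCs to 0.0552, neither of them called in either test. *Gata4* in HCs (2.92, adjusted p = 0.0397), *Gata6* in MCs (2.76, adjusted p = 0.0104) and *Gata3* in SNS (1.60, adjusted p = 0.0117) were not called in it, and *Gata5* in MCs was not called in the 1 fit (2.67, edgeR adjusted p = 0.0160). *Gata6* in SNS, not called as labelled, was called with ERCC factors, DESeq2, 1 fit, the study's test and without the 12 pools. *Zfpm1* was also called in MCs by the study's test (2.39) and in SNS with ERCC factors (1.42), and *Gata2* in MCs in the 1 fit (-1.77). Over all settings run, 227 of 249 log2 changes of members kept their direction and their side of the threshold; the cause of the others was not tested. The 8000-gene limit removed no further pool, so its 28 log2 changes, all within that count, repeat the main fit. Every HC pool passed, so in HCs the setting with all pools repeats it as well. No paired analysis was possible because the columns carry no replicate numbers. Most pools held under 10 counts of *Gata4* and *Gata5* in ECs and of 9230102O04Rik in every population, where low expression and limited depth cannot be told apart.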
